A study of Rattus norvegicus with 15 samples.

Results

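Sortilin and the receptors related to the low-density lipoprotein (LDL) receptor carry cargo at the cell surface and between the trans-Golgi network and endosomes. The genes described here were chosen by name: Lrp1, Lrp4, Lrp5, Lrp6 and Lrp8 of the LDL receptor family, and Sort1, Sorl1, Sorcs1 and Sorcs2 of the VPS10P domain family. Of these 9 genes, 8 have a row among the 17055 genes of the count tables, and Lrp8, the receptor for reelin, is not analysed here. The choice was made with results of these data known, among them the higher Lrp1 in Ago2-bound RNA after miR-17-5p. That value, and each difference that rests on the Lrp1 level in RISC of treated or control cells, is therefore given as a description with no test.

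The cells were islet cells of 10-day-old Sprague-Dawley rats, dispersed before transfection. They received either a mimic of miR-17-5p (a synthetic copy of the microRNA) or a control mimic. Ago2 is the Argonaute protein at the core of the silencing complex (RISC) in which microRNAs act. RNA that came down with it in an immunoprecipitation was sequenced, as was poly(A) RNA of cells handled in parallel. There were 4 RISC libraries of miR-17-5p cells (replicates 2, 4, 5 and 6), 3 RISC libraries of control cells (1, 2 and 3), 5 mRNA libraries of miR-17-5p cells (1, 2, 4, 5 and 6) and 3 mRNA libraries of control cells (1, 2 and 3). All groups were transfected, so none shows untreated islet cells, and the labels do not say how many rats went into a library. Titles and descriptions number the libraries differently, and p-values therefore reflect the spread among the libraries at hand, part of which may be technical. Most islet cells are beta cells, but dispersed islets also hold other endocrine cells, stellate cells and fibroblasts, endothelial cells and macrophages. How much miR-17-5p the cells held is not analysed here.

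LDL receptor family members bind ligands through cysteine-rich repeats outside the cell and release them in acidic endosomes. Lrp1 takes up apolipoprotein E, protease and inhibitor complexes and matrix proteins, Lrp5 and Lrp6 are co-receptors of Frizzled proteins for Wnt signals, and Lrp4 binds agrin at the neuromuscular junction. VPS10P domain receptors sort proteins between Golgi, endosomes and the cell surface with the retromer and its partners: sortilin (Sort1) binds neurotensin and pro-neurotrophins, SorLA (Sorl1) steers the amyloid precursor protein, and the SorCS receptors bind neurotrophin precursors or sort other cell surface receptors.

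The mature miR-17-5p sequence and the other rat microRNAs with its seed (bases 2 to 8, in capitals) are shown because they define which seed the mimic adds to cells that may already hold the same seed. They were taken from RefSeq, build GRCr8, 5′ to 3′, a build other than that of the counts. The table lists the mature miR-17-5p sequence also at the Mir106a locus (chrX:137343615-137343637, minus strand). The seed was the same in all 5 sequences, and they differ outside it. Seed matches in the receptor transcripts are not analysed here.
rno-miR-17-5p (chr15:98587861-98587883, plus strand): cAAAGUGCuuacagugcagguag
rno-miR-20a-5p (chr15:98588318-98588340, plus strand): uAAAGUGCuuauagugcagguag
rno-miR-20b-5p (chrX:137343239-137343261, minus strand): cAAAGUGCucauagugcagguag
rno-miR-93-5p (chr12:22156894-22156916, minus strand): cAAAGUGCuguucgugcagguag
rno-miR-106b-5p (chr12:22157103-22157123, minus strand): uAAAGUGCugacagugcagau

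Libraries held 3379456 to 21056240 counts in genes. At an equal depth of 3379456 counts, 9841 ± 745 genes were detected in miR-17-5p RISC (SD, n = 4) against 6415 ± 825 in control RISC (n = 3), and 11868 ± 534 in miR-17-5p mRNA (n = 5) against 11714 ± 505 in control mRNA (n = 3). Control RISC libraries thus detected the fewest genes, and the part of this in the RISC values below was not tested. The labelled tissue matched its markers: insulin transcripts (Ins1 and Ins2) made up 26.2% to 41.8% of counts in miR-17-5p mRNA and 36.8% to 41.6% in control mRNA. In RISC libraries they made up 0.947% to 1.47% with miR-17-5p and 1.69% to 1.97% in control cells. Glucagon (Gcg) averaged 11000 ± 1230 CPM and somatostatin (Sst) 752 ± 226 CPM in miR-17-5p mRNA (SD, n = 5), against 12100 ± 2700 and 1210 ± 221 CPM in control mRNA (n = 3). Rn45s, a ribosomal RNA precursor, made up 26.6% to 42.6% of counts in miR-17-5p RISC and 23.6% to 37.9% in control RISC, and 3.75% to 12.8% in miR-17-5p mRNA and 3.13% to 9.99% in control mRNA.

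Levels below are counts scaled to 1000000 per library (CPM) on a scale shared by all 15 libraries, and log2 fold changes come with their standard error (SE) from edgeR's quasi-likelihood fit over all genes, where a gene is called if its p, adjusted by Benjamini-Hochberg, is under 0.05. Levels of different genes are not compared, since no transcript lengths were used. In mRNA, 1 of the 8 receptor genes was called higher (Lrp1) and 1 lower (Sorcs2) after miR-17-5p, where 3.11% of 11077 genes were called higher and 0.767% lower. In RISC, 0.339% of 9443 genes were called higher and 0.0318% lower. Lrp1 is among those called higher, but the choice of genes used this value and nothing is read from it. None of the other 7 receptor genes was called there by edgeR, DESeq2 or limma-voom, and Sorl1 and Sorcs2 had an unadjusted p under 0.05 in edgeR (0.0368 and 0.0392). The effect of miR-17-5p in RISC minus that in mRNA was called for 1 of 8, Sorcs2, upward, where 13.0% of 11418 genes were called upward and 0.394% downward. The median log2 change of the 8 genes was 0.06 in mRNA, 0.10 in RISC and 0.04 in the difference, beside 0.01, 0.27 and 0.40 over all genes tested. The medians of the 8 in RISC and in the difference include Lrp1, so they are a description.

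Between library types more receptors differed than with the mimic, and so did more of all genes. Of all genes, 4727 of 10871 were called in miR-17-5p cells and 2870 of 10170 in control cells, against 429 of 11077 with the mimic in mRNA. In miR-17-5p cells 3 of the 7 receptor genes other than Lrp1, whose RISC level the choice used, were called higher in RISC than in mRNA. These were Lrp6, Sort1 and Sorl1, where 21.7% of 10871 genes were called higher and 21.8% lower. In control cells 3 of 7 tested were called higher in RISC (Lrp6, Sort1 and Sorl1) and 1 lower (Sorcs2). Of 10170 genes, 5.96% were called higher there and 22.3% lower. The 7 include Lrp1, whose value there is a description, and Sorcs1 was too low to be tested. The median log2 difference was 1.10 over the 8 genes in miR-17-5p cells and 1.18 over the 7 in control cells, beside -0.15 and -0.69 over all genes. The receptor medians include Lrp1, whose RISC level the choice of genes used, so they are a description. With DESeq2 size factors in place of the trimmed mean of M values the all-gene medians were -0.26 in miR-17-5p cells and -0.87 in control cells, and that of the difference between effects was 0.27. RISC RNA had no poly(A) selection stated, so binding to Ago2 and the library preparation cannot be told apart in any of these values. Without control replicate 1 none of the genes tested was called between library types in control cells (3565 at an unadjusted p under 0.05), in a fit with 2 libraries of each type. The comparisons share libraries and are not independent of each other.

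**Figure D1:**
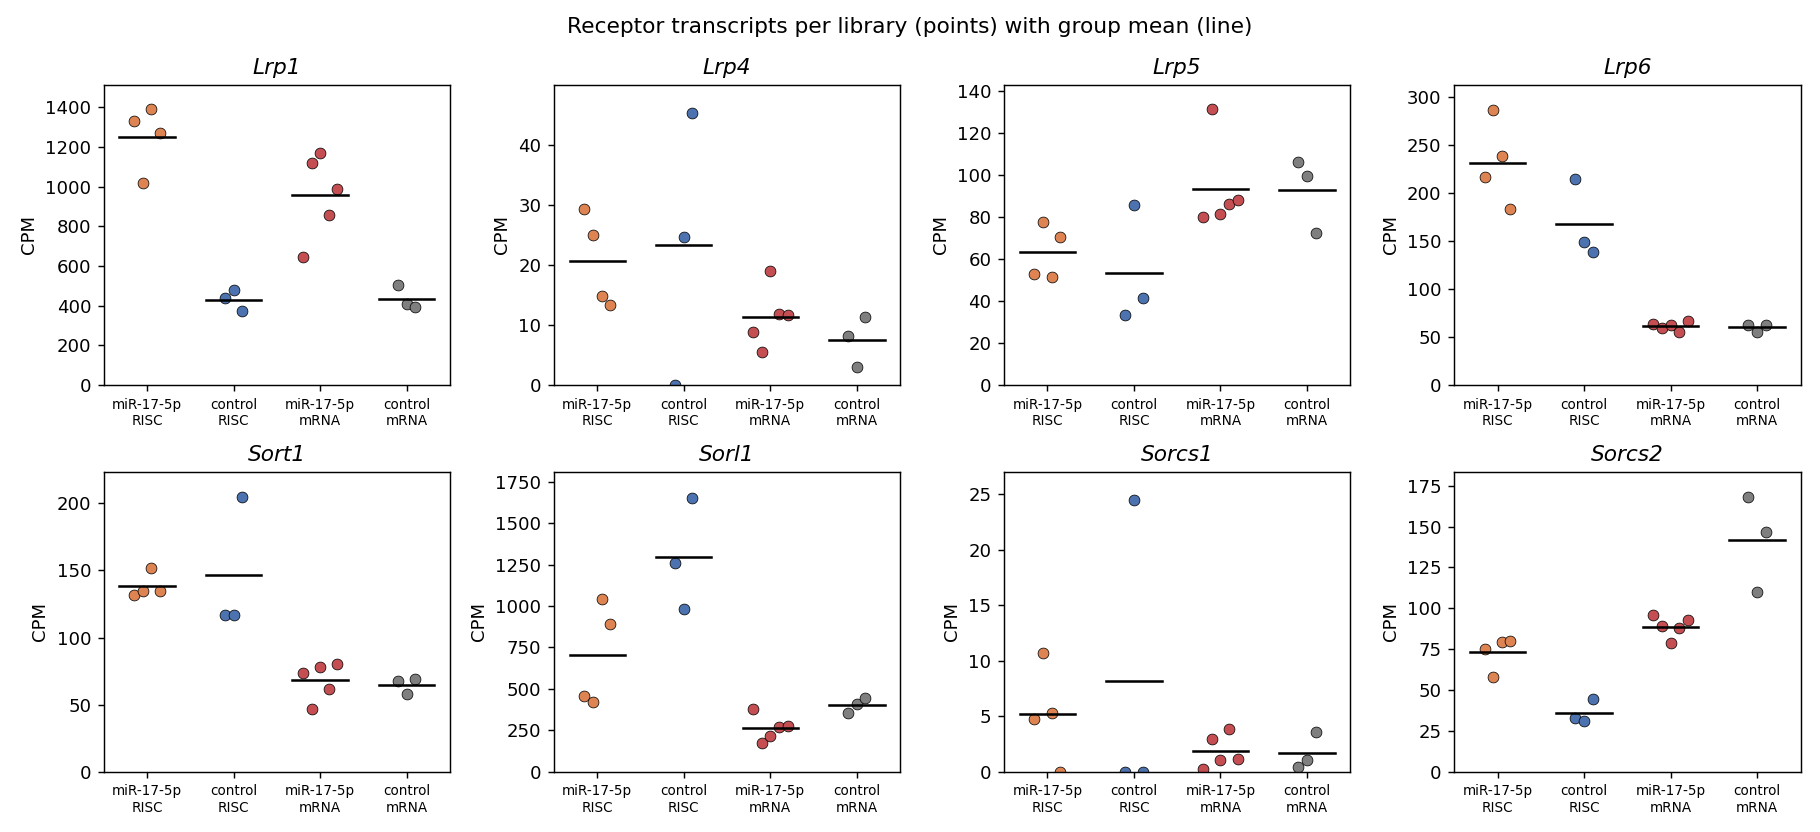
CPM (linear axes starting at 0) of the 8 receptor genes in each of the 15 libraries, with points for libraries and lines for group means. Lrp1 was at 647 to 1170 CPM in the 5 miR-17-5p mRNA libraries and at 395 to 502 CPM in the 3 control mRNA libraries, and Sorcs2 was lower in all miR-17-5p mRNA libraries than in any control mRNA library.

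Lrp1, the large endocytic receptor, was higher after miR-17-5p in both library types. In mRNA it measured 647, 1120, 1170, 859 and 990 CPM in miR-17-5p libraries 1, 2, 4, 5 and 6, against 502, 409 and 395 CPM in control libraries 1, 2 and 3. In RISC it measured 1330, 1020, 1390 and 1270 CPM in miR-17-5p libraries 2, 4, 5 and 6, against 440, 478 and 375 CPM in control libraries. The lowest treated library stood above the highest control library in each type. The log2 fold change was 1.14 ± 0.19 in mRNA (95% interval 0.73 to 1.55, edgeR adjusted p = 0.0066) and, as a description, 1.56 ± 0.20 in RISC. The mRNA call was lost without control replicate 2 (1.09, edgeR adjusted p = 0.0613) or 3 (1.08, edgeR adjusted p = 0.06), and the RISC value ranged from 1.44 to 1.66 when single libraries were left out.

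As a description, the Lrp1 effect in RISC minus that in mRNA was 0.41 ± 0.27 on the log2 scale (95% interval -0.17 to 0.98). Between library types, also as a description, the Lrp1 log2 difference of RISC over mRNA was 0.56 ± 0.19 in miR-17-5p cells, where the groups overlapped, and it ranged from 0.43 to 0.75 with single replicates left out. In control cells RISC over mRNA was -0.01 ± 0.17 (95% interval -0.44 to 0.42). It is a description too, since the control RISC level is part of the change that the choice of genes used.

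With the mimic, 3.11% of all genes tested were called higher and 0.767% lower in mRNA, and 0.339% and 0.0318% in RISC. Markers of stellate cells and fibroblasts moved with Lrp1. Of 12 tested, 8 were called higher in miR-17-5p mRNA, led by Acta2, smooth muscle actin (1.97 ± 0.25, edgeR adjusted p = 0.00128), and 6 of 12 in miR-17-5p RISC, among them Col1a1, a collagen chain (2.35 ± 0.29, edgeR adjusted p = 0.0191). Leaving out a library gave 3 called in mRNA without control library 2 and 1 without control library 3, and otherwise 6 to 9. In RISC it gave 1 called without control library 1, none without treated library 2, 5 or 6, and otherwise 6 to 8. Their summed level was 23600 to 26600 CPM in miR-17-5p RISC against 4550 to 9770 in control RISC, and 20800 to 46500 CPM in miR-17-5p mRNA against 11100 to 19700 in control mRNA; Col1a2 was at 0 in all libraries. Beta cell markers summed to 299000 to 558000 CPM in miR-17-5p mRNA and 425000 to 503000 in control mRNA. All 7 had log2 changes below 0 in mRNA, with 3 at an unadjusted p under 0.05, none called by edgeR and 2 by DESeq2. In RISC they summed to 9460 to 13800 CPM with miR-17-5p and 12900 to 20300 in control cells. There 1 of the 7 had a log2 change above 0 (median -0.79). In edgeR 4 had an unadjusted p under 0.05 and none was called, while DESeq2 called 3 lower. In miR-17-5p mRNA 2 of 9 endothelial markers were called lower, none without control library 1, and 1 without control library 2 or 3 or treated library 4 or 5. Of the 9, 3 had log2 changes above 0, and DESeq2 called 1 higher beside 2 lower. Their summed level was 166 to 311 CPM in miR-17-5p mRNA and 162 to 234 CPM in control mRNA. Of 8 macrophage and leukocyte markers 1 was called higher in mRNA, none without control library 1 or 3 and 2 without treated library 1. All 8 had log2 changes above 0 in mRNA (median 0.97). In RISC all 7 tested did (median 3.8, beside 0.27 over all genes), and 1 was called (0 to 3 with a library left out). The macrophage sum was 197 to 299 CPM in miR-17-5p RISC against 0.159 to 93.9 in control RISC, where Cd14 was at 0. In mRNA this sum was 83.3 to 216 CPM against 34.5 to 152. Of 8 Schwann and neural markers 1 was called higher in mRNA, none without control library 2 or 3 or treated library 4. None of the 5 tested in RISC was called, and 4 had log2 changes above 0. The Schwann and neural sum was 675 to 697 CPM in miR-17-5p RISC against 191 to 480 in control RISC. In mRNA this sum was 299 to 470 CPM against 284 to 375. Among 8 markers of the other endocrine cells Ghrl, ghrelin, was called lower in mRNA (-1.13 ± 0.20, edgeR adjusted p = 0.00894), a call lost without control library 1 or 2. Among 4 duct markers Epcam, an epithelial adhesion molecule, was called lower in mRNA (-0.66 ± 0.13, edgeR adjusted p = 0.0138), a call lost without control library 2 or 3. Of the 4 duct markers, 2 had log2 changes above 0, and their median change was 0.05.

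Set against these markers within each library, Lrp1 overlapped between treatments. There were 2.53 to 3.11 Lrp1 counts per 100 marker counts in miR-17-5p mRNA and 2.55 to 3.56 in control mRNA, ranges that overlap. In RISC, as a description, the ratio was 3.84 to 5.90 in miR-17-5p cells and 4.89 to 8.23 in control cells, which also overlap. In bulk RNA, fewer cells of a type and less RNA per cell cannot be told apart, and the part of these cells in the Lrp1 result was not tested. The genes whose levels over the 15 libraries were most like Lrp1's were Col4a1 and Col5a1, collagen chains. Their root mean square difference of centred log2 CPM was 0.22 and 0.24, the smallest among 6330 genes (median 1.42). The smallest values lie below the median for any gene, and the closest genes of other members stood at 0.19 (Lrp6) to 0.30 (Sorcs2). The likeness includes the Lrp1 values in RISC that the choice of genes used, so it is a description. Col5a1 is also on the marker list.

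**Figure D2:**
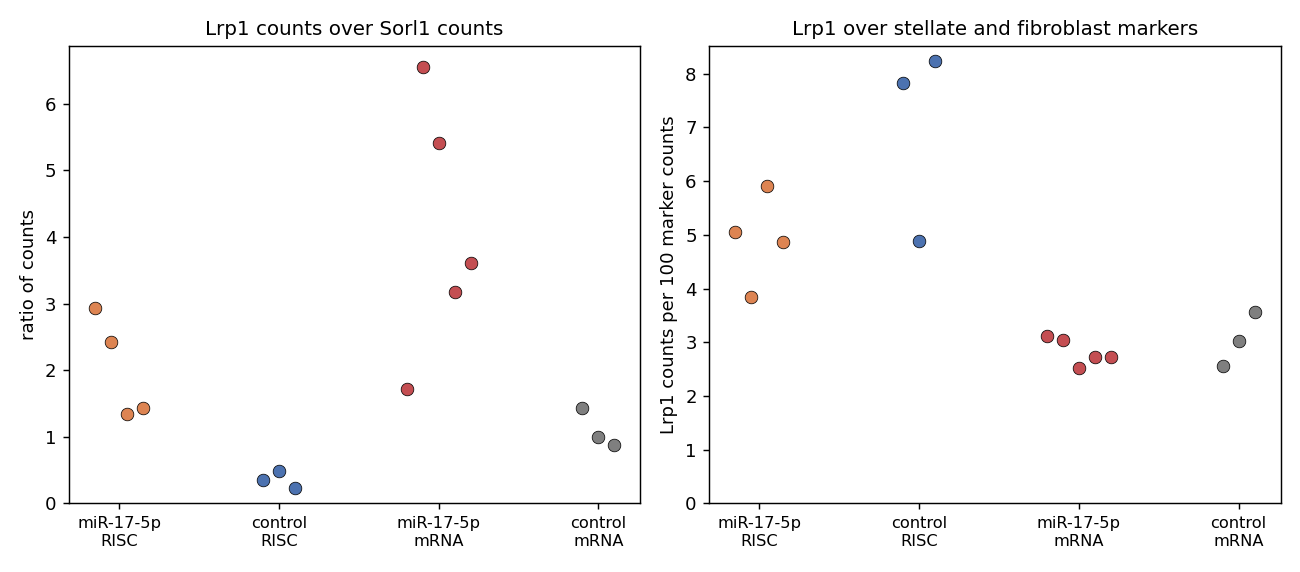
Left, Lrp1 counts divided by Sorl1 counts in each library; right, Lrp1 counts per 100 counts of stellate and fibroblast markers (linear axes starting at 0, points for libraries). Lrp1 over Sorl1 was higher after miR-17-5p in both library types, at 1.35 to 2.93 against 0.227 to 0.486 in RISC and 1.72 to 6.55 against 0.882 to 1.43 in mRNA, while Lrp1 over the markers overlapped between treatments. Both ratios were chosen after the values were seen, so they are a description and carry no test. In RISC they also rest on the Lrp1 level that the choice of genes used.

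Sorl1, which encodes SorLA, had lower means after miR-17-5p in both library types, but neither change was called. In mRNA it measured 377, 171, 217, 271 and 274 CPM in miR-17-5p libraries 1, 2, 4, 5 and 6, against 352, 408 and 448 CPM in control libraries. In RISC it measured 456, 419, 1040 and 893 CPM in miR-17-5p libraries 2, 4, 5 and 6, against 1260, 983 and 1650 CPM in control libraries. The highest treated library reached into the control range in each type. The log2 changes, -0.62 ± 0.20 in mRNA (edgeR adjusted p = 0.116) and -0.87 ± 0.35 in RISC (edgeR adjusted p = 0.195), did not pass the test. In mRNA it was called by DESeq2 (-0.63, adjusted p = 0.0435) and limma-voom (-0.58, adjusted p = 0.0131), and by edgeR without miR-17-5p replicate 1 (-0.78, adjusted p = 0.0159).

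Within a library, which needs no scaling, Sorl1 counts were 3.11 to 6.79 times Sort1 counts in miR-17-5p RISC against 8.06 to 10.8 times in control RISC, and 2.78 to 5.13 times in miR-17-5p mRNA against 5.22 to 7.06 times in control mRNA. The ranges did not overlap in either type. The choice of this ratio was made after the values were seen, so it carries no test.

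Sorl1 was higher in RISC than in mRNA under both treatments. The log2 difference was 1.59 ± 0.31 in miR-17-5p cells (edgeR adjusted p = 0.00151) and 1.69 ± 0.24 in control cells (edgeR adjusted p = 0.00845), and RISC and mRNA libraries did not overlap in either. The control call was lost without replicate 1 (1.62, edgeR adjusted p = 0.0619); the miR-17-5p call held in each alternative run. Its nearest genes were Tenm2, a teneurin, and Cntn1, contactin 1, both cell adhesion molecules of neural cells, at 0.24 and 0.27.

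Sorcs2, a receptor of neurotrophin precursors, was the only one of the 8 genes called in the difference between RISC and mRNA. In RISC it measured 74.9, 57.9, 79.4 and 80.1 CPM in miR-17-5p libraries 2, 4, 5 and 6, against 32.9, 30.9 and 44.3 CPM in control libraries. In mRNA it measured 95.9, 89.2, 78.8, 87.7 and 92.6 CPM in miR-17-5p libraries 1, 2, 4, 5 and 6, against 168, 110 and 147 CPM in control libraries. Treated libraries were thus above all control libraries in RISC and below all of them in mRNA.

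The Sorcs2 log2 change was 1.04 ± 0.43 in RISC (95% interval 0.06 to 2.02, edgeR adjusted p = 0.206), which did not pass, and it fell by 0.67 ± 0.14 on the log2 scale in mRNA (edgeR adjusted p = 0.0216). The difference of effects was 1.69 ± 0.31 (95% interval 1.04 to 2.35, edgeR adjusted p = 0.00153), or 1.29 above the median of all genes. It kept its call when each replicate number was left out (1.65 to 2.01), and lost it with limma-voom (1.75, adjusted p = 0.405) and with a replicate block (1.71, edgeR adjusted p = 0.0861). The mRNA call was lost when control library 1 or 3, or treated library 4 or 5, was dropped (edgeR adjusted p 0.0532 to 0.11).

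Between library types, the Sorcs2 log2 difference of RISC over mRNA was -0.11 ± 0.16 in miR-17-5p cells (95% interval -0.46 to 0.23, edgeR adjusted p = 0.6), and the groups overlapped. In control cells it was lower in RISC, at -1.97 ± 0.31 (edgeR adjusted p = 0.00952), a call lost without replicate 1 (-1.78, edgeR adjusted p = 0.063) and with limma-voom (-1.98, adjusted p = 0.152). The test of this contrast is the difference of effects above. Control RISC libraries, where Sorcs2 was lowest, are also those with the fewest genes detected, and the part of this in the result was not tested. Counting used no strand, and the span of Sorcs2 overlaps that of Psapl1 in the GRCr8 annotation, a build other than that of the counts. Spans include introns, and whether any counted reads lie in the overlap was not examined. Lrp1, Lrp4, Lrp5 and Sorcs1 likewise overlap loci without a gene name in GRCr8, while Lrp6, Sort1 and Sorl1 overlap none. The nearest genes of Sorcs2 were Unc45a, a myosin chaperone, and Rbm10, an RNA-binding splicing factor, at 0.30 and 0.32.

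**Figure D3:**
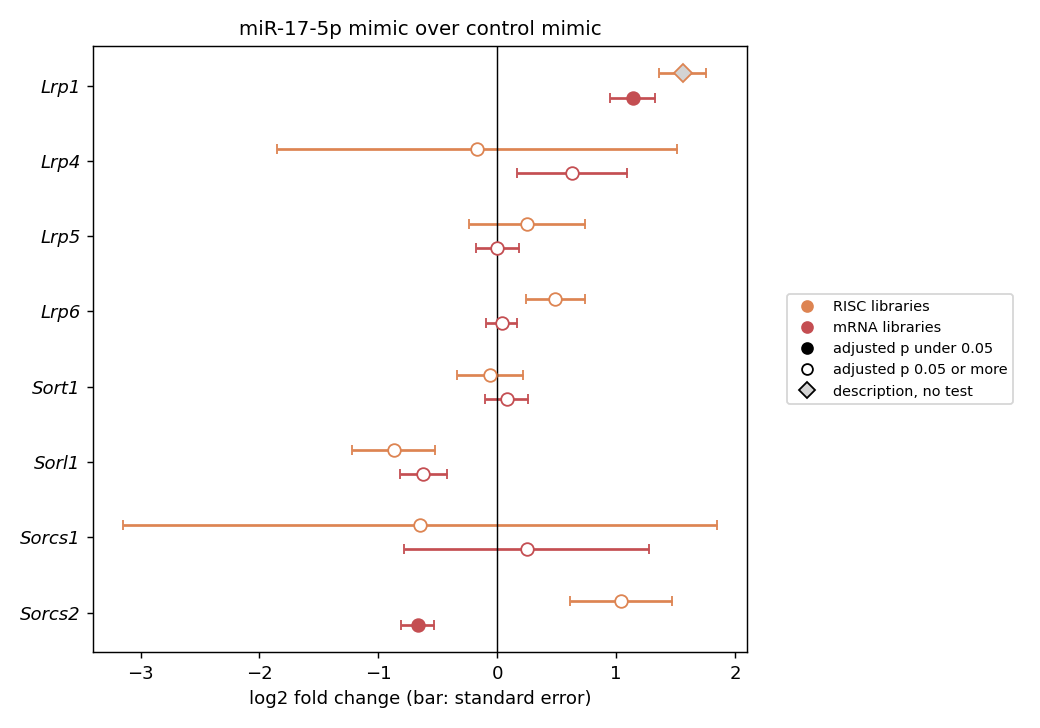
Log2 fold change of miR-17-5p over control for each receptor gene in RISC and mRNA libraries, with bars for the SE, filled points for adjusted p under 0.05 and a grey diamond for the value that is a description. Lrp1 lies at 1.56 and 1.14 and Sorcs2 at 1.04 and -0.67, with Lrp4 and Sorcs1 in RISC carrying the widest bars; the Lrp1 value in RISC is the diamond.

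Sortilin itself was not called with the mimic in either library type. Sort1 measured 132, 135, 152 and 135 CPM in miR-17-5p RISC libraries 2, 4, 5 and 6, against 117, 117 and 205 CPM in control RISC libraries. In mRNA it measured 73.6, 47.0, 78.1, 61.5 and 80.4 CPM in miR-17-5p libraries 1, 2, 4, 5 and 6, against 67.4, 57.9 and 69.1 CPM in control libraries. Treated and control libraries overlapped in each type. The log2 changes were -0.06 ± 0.28 in RISC (95% interval -0.69 to 0.58) and 0.08 ± 0.18 in mRNA (95% interval -0.31 to 0.46), and neither was called.

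Sort1 was higher in RISC than in mRNA by 1.19 ± 0.18 on the log2 scale in miR-17-5p cells (edgeR adjusted p = 0.000251) and by 1.18 ± 0.32 in control cells (edgeR adjusted p = 0.0407), with no overlap in either. The control call was lost in each leave-one-out fit (0.90 to 1.34, edgeR adjusted p 0.0856 to 0.125), with DESeq2 size factors (1.01, edgeR adjusted p = 0.0935) and with limma-voom (1.08, adjusted p = 0.075). Its nearest genes were Dcaf7, an adaptor of ubiquitin ligases, and Ube4b, a ubiquitin ligase, both at 0.20. Among the members, Sort1 was nearest to Lrp6, at 0.48.

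The Wnt co-receptors Lrp6 and Lrp5 differed in their distribution between library types. Lrp6 measured 217, 286, 238 and 183 CPM in miR-17-5p RISC libraries 2, 4, 5 and 6, and 63.9, 59.6, 63.0, 55.4 and 67.1 CPM in miR-17-5p mRNA libraries 1, 2, 4, 5 and 6. In control cells it measured 214, 149 and 139 CPM in RISC against 63.0, 55.3 and 63.0 CPM in mRNA. Every RISC library stood above every mRNA library, by log2 differences of 2.07 ± 0.15 in miR-17-5p cells (edgeR adjusted p = 1.84e-06) and 1.47 ± 0.27 in control cells (edgeR adjusted p = 0.0112). The miR-17-5p call held in each alternative run, and the control call was lost without replicate 1 (1.28, edgeR adjusted p = 0.062) or 2 (1.44, edgeR adjusted p = 0.0714).

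With the mimic, Lrp6 stood at 0.49 ± 0.25 in RISC (95% interval -0.08 to 1.06, edgeR adjusted p = 0.372) and 0.04 ± 0.13 in mRNA (95% interval -0.25 to 0.33, edgeR adjusted p = 0.915) on the log2 scale. Its mRNA level averaged 61.8 ± 4.47 CPM in miR-17-5p cells (SD, n = 5) and 60.4 ± 4.47 CPM in control cells (n = 3), and these coefficients of variation, 7.23% and 7.39%, were the lowest of the 8 genes in each group. Its nearest genes were Camsap2, a microtubule minus-end binding protein, and Nrp1, neuropilin 1, at 0.19 and 0.24.

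Lrp5 averaged 63.1 ± 13.0 CPM in miR-17-5p RISC (SD, n = 4) and 53.4 ± 28.0 CPM in control RISC (n = 3), against 93.2 ± 21.3 CPM in miR-17-5p mRNA (n = 5) and 92.7 ± 18.0 CPM in control mRNA (n = 3). Its highest miR-17-5p mRNA library, replicate 2, stood at 131 CPM against 79.7 to 88.1 CPM in the other 4. The log2 change with the mimic was 0.25 ± 0.49 in RISC (95% interval -0.85 to 1.35) and 0.00 ± 0.18 in mRNA (95% interval -0.39 to 0.40). All miR-17-5p RISC libraries lay below all miR-17-5p mRNA libraries, with a log2 difference of -0.41 ± 0.19 that did not pass (edgeR adjusted p = 0.109), and the control difference was -0.79 ± 0.46 (edgeR adjusted p = 0.331). Its nearest genes were Arih2, a ubiquitin ligase, and Map2k1, the kinase MEK1, at 0.25 and 0.26.

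**Figure D4:**
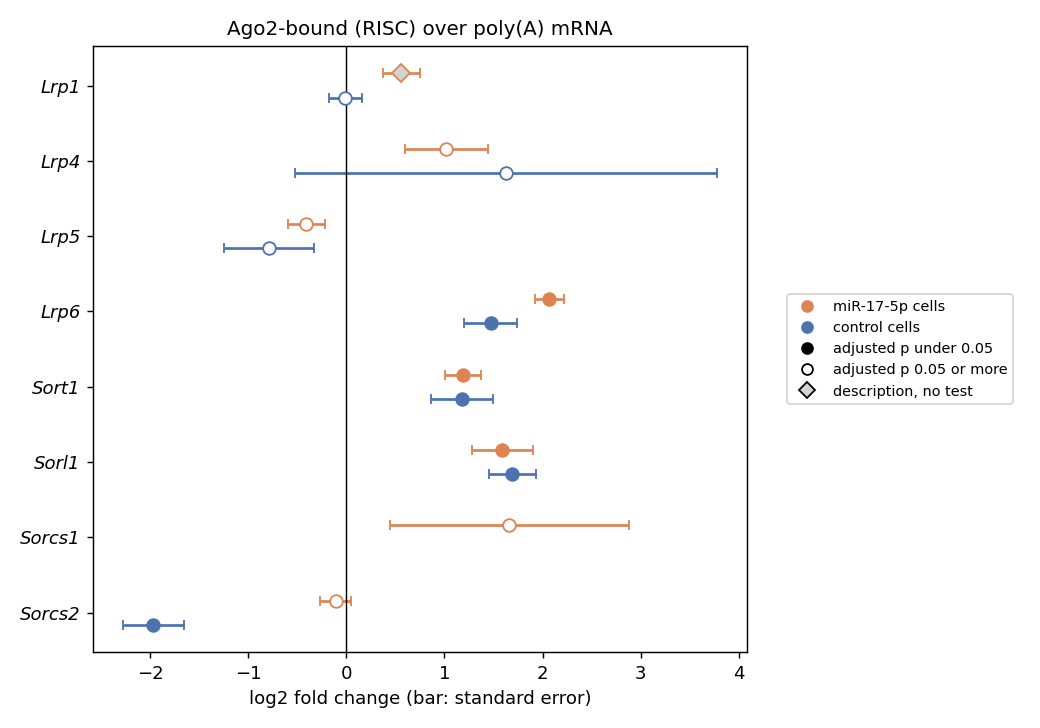
Log2 difference of RISC over mRNA for each receptor gene in miR-17-5p and control cells, with bars for the SE, filled points for adjusted p under 0.05 and a grey diamond for Lrp1 in miR-17-5p cells, which is a description. Lrp6, Sort1 and Sorl1 lie between 1.18 and 2.07 in both treatments. Sorcs2 lies at -0.11 in miR-17-5p cells and -1.97 in control cells. Sorcs1 could be tested in miR-17-5p cells only. The Lrp1 value in control cells, drawn as an open point, is a description as well.

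Lrp4 and Sorcs1 were low in mRNA, spread widely between RISC libraries and gave little precision. Lrp4 measured 29.3, 24.9, 14.8 and 13.3 CPM in miR-17-5p RISC libraries 2, 4, 5 and 6, against 0, 24.7 and 45.3 CPM in control RISC libraries. In mRNA it ranged from 5.55 to 18.9 CPM in miR-17-5p cells and from 3.05 to 11.4 CPM in control cells, and its log2 change was 0.63 ± 0.46 (edgeR adjusted p = 0.516), beside -0.17 ± 1.68 in RISC (edgeR adjusted p = 0.992). In miR-17-5p cells RISC over mRNA stood at 1.02 ± 0.42 (edgeR adjusted p = 0.0719).

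Sorcs1, mapped in mice as a diabetes locus, was counted at 73, 121, 57 and 0 in miR-17-5p RISC libraries 2, 4, 5 and 6, against 0, 227 and 0 in control RISC libraries. In mRNA it had 4 to 22 counts in miR-17-5p libraries and 4 to 10 in control libraries, or 0.252 to 3.85 and 0.438 to 3.56 CPM. A single control RISC library therefore held all of that group's Sorcs1 counts. The log2 change was -0.65 ± 2.50 in RISC and 0.25 ± 1.03 in mRNA, and a difference was not detectable with this spread between libraries. Sorcs3, the remaining gene of that family, has a row but was too low to be tested.

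Of the other LDL receptor family genes 8 were tested. In RISC or mRNA alone none of the 8 was called, with 2 and 3 at an unadjusted p under 0.05, and DESeq2 called 2 higher in RISC and 1 lower in mRNA. Between library types 5 of the 8 were called higher in RISC and 2 lower in miR-17-5p cells. Of all genes tested there, 21.7% were called higher and 21.8% lower. In control cells 2 of the 8 were called higher and 1 lower, beside 5.96% and 22.3% of all genes. The very-low-density lipoprotein receptor Vldlr was higher in RISC in both (1.31 ± 0.21 with miR-17-5p, edgeR adjusted p = 0.000327, and 1.55 ± 0.28 in control cells, edgeR adjusted p = 0.0107), and Lrp10 was lower in both (-0.71 ± 0.13, edgeR adjusted p = 0.00095, and -1.85 ± 0.42, edgeR adjusted p = 0.0217). In control cells the Vldlr call was lost without replicate 1, and the Lrp10 call without replicate 1 or 3 (edgeR adjusted p up to 0.172). The family counts there became 1 higher and 2 lower without replicate 2, and 1 higher and none lower without replicate 3. Without control library 2, 2 of the 8 were called higher with the mimic in RISC, and without treated library 1, 2 were called lower in mRNA.

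Where 3.11% of all genes were called higher in miR-17-5p mRNA, 3 of 16 tested ligands of LRP1 and its relatives were. Among them were Ctgf, connective tissue growth factor (1.47 ± 0.28, edgeR adjusted p = 0.0148), and Mdk, the growth factor midkine (1.27 ± 0.29, edgeR adjusted p = 0.0311). In RISC 1 of 16 was called higher, beside 0.339% of all genes. This was Plat, tissue plasminogen activator, at 224 ± 31.2 CPM in miR-17-5p cells (n = 4) against 60.3 ± 17.7 CPM in control cells (SD, n = 3). Its log2 change was 1.91 ± 0.29 (edgeR adjusted p = 0.0314). In mRNA none of the 16 was called without control library 2 or 3, 1 without treated library 4 or 5, 5 without treated library 1, and otherwise 2. In RISC none was called without control library 1 or treated library 2, 5 or 6, 2 without control library 3, and 4 without control library 2 or treated library 4. Of the sortilin family ligands none of 6 was called in mRNA, where none had an unadjusted p under 0.05 and DESeq2 called none, and none of 5 in RISC, where 4 had one and DESeq2 called 1. Grn, the progranulin that sortilin takes up, was nearest in RISC (0.90 ± 0.26, edgeR adjusted p = 0.0826).

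None of 19 retromer and trans-Golgi genes was called in mRNA or in RISC by edgeR, with 2 at an unadjusted p under 0.05 in each, and DESeq2 called 1 in RISC and none in mRNA. Snx3, a retromer cargo adaptor, was at 0 in all control RISC libraries and at 9.43 to 14.4 CPM in RISC of treated cells. The treated mean was 37.5 times a floor of 3 counts per library, which covers counting error only and not the spread between libraries. Snx3 was not called in RISC (edgeR adjusted p = 0.0725). Among 12 chaperones and endocytic adaptors none was called in RISC by edgeR (3 at an unadjusted p under 0.05, and 2 called by DESeq2), and among 11 tested in mRNA none was called (2 at an unadjusted p under 0.05, and 1 called by DESeq2). Snx3 at 0 sits beside the lower number of genes detected in control RISC, whose part was not tested. It was called in the difference of effects, as were the adaptor Pid1 and, of the other lists, Mdk, the neurotrophin Bdnf and Porcn, the enzyme that adds lipid to Wnt proteins. Pid1, Mdk and Bdnf were also at 0 in all control RISC libraries, and Porcn averaged 0.0719 ± 0.125 CPM there (SD, n = 3), so their fitted sizes are not given. Bdnf kept this call in 1 of 8 fits that left out a replicate, and Snx3, Pid1, Mdk and Porcn in all 8.

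Between library types, 6 of 19 retromer and trans-Golgi genes were called higher in RISC and 3 lower in miR-17-5p cells. Of all genes tested there, 21.7% were called higher and 21.8% lower. In control cells 3 of 19 were called higher and 1 lower, beside 5.96% and 22.3% of all genes. Igf2r, the receptor for mannose 6-phosphate, was higher in both (1.64 ± 0.21, edgeR adjusted p = 8.25e-05, with miR-17-5p, and 2.20 ± 0.37, edgeR adjusted p = 0.0102, in control cells), as was Ap1g1, a clathrin adaptor subunit (2.22 ± 0.21, edgeR adjusted p = 9.66e-06, and 1.79 ± 0.44, edgeR adjusted p = 0.029). In miR-17-5p cells both held in each fit with a replicate left out. In control cells 1 gene was called higher without replicate 2 and 2 without replicate 3, each with 1 lower, and none without replicate 1. Igf2r lost its control call without replicate 1 (edgeR adjusted p = 0.0652) and Ap1g1 without replicate 1 or 2 (edgeR adjusted p up to 0.209).

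Around Lrp4, Lrp5 and Lrp6, 3 of 35 Wnt and agrin pathway genes were called higher in miR-17-5p mRNA, beside 3.11% of all genes. The 3 were Dkk3, a secreted Dickkopf-family protein (1.73 ± 0.23, edgeR adjusted p = 0.00138), and the Wnt receptors Fzd2 (1.45 ± 0.28, edgeR adjusted p = 0.0127) and Fzd1 (1.48 ± 0.33, edgeR adjusted p = 0.0331). Without control library 2 or 3, 1 was called higher, without a treated library other than 1 there were 2, and otherwise 3. In RISC none of 32 was called by edgeR, with 2 at an unadjusted p under 0.05, and DESeq2 called 1 higher and 1 lower; without control library 2 edgeR called 6 higher. In miR-17-5p cells 13 of 35 were called higher in RISC than in mRNA and 3 lower, beside 21.7% and 21.8% of all genes. Among the higher were Tcf7l2, a transcription factor of Wnt signalling (2.98 ± 0.34, edgeR adjusted p = 3.28e-05), and Gsk3b, a kinase that marks beta-catenin for removal (1.57 ± 0.19, edgeR adjusted p = 5.55e-05). In control cells it was 2 higher and 1 lower of 31, beside 5.96% and 22.3% of all genes. In miR-17-5p cells 9 were higher without replicate 5 or 6, and 1 was lower without replicate 6. In control cells 1 was higher and 6 were lower without replicate 2, so the direction with more calls turned without it, and none was called without replicate 1. None of 3 neurotrophin co-receptors was called with the mimic in mRNA, where 2 had an unadjusted p under 0.05 and DESeq2 called 1 lower.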

How the data were processed

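Members and gene lists were chosen with earlier results of these data known. Per the submitters' processing notes, the authors aligned reads to rn5 with TopHat2 2.0.10 and Bowtie2 and made the deposited counts per gene with HTSeq; those notes also name DESeq and edgeR, with no version given in the sources used here. Per the labels' protocols, Trizol was used for extraction, oligo(dT) selected the mRNA, RISC RNA came from an anti-Ago2 immunoprecipitation, and libraries were single-end without strand. Summary lines were left out of library sizes: per library, 15.0% to 31.2% of alignments were not unique and 0.151% to 0.454% fell on several genes. The merged tables hold the same counts and were not used, and 0 per-sample columns were left aside. No 2 libraries of a group agreed within sampling noise (chi-square per degree of freedom 6.78 to 323).

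The test of the counts was that of edgeR 4.0.16 under R 4.3.3 (TMM, filterByExpr with a minimum count of 10, robust quasi-likelihood F-tests, two-sided), with adjusted p under 0.05 over all genes tested as called. SE is the log2 fold change over the square root of F. The common biological variation (coefficient) came to 0.305 for mRNA, 1.23 for RISC, 0.871 for the difference of effects, and 0.584 and 1.20 between library types in miR-17-5p and control cells. The script was tested on simulated data. Alternatives were DESeq2 size factors, no filter, DESeq2 1.42.0, limma-voom (limma 3.58.1) with quality weights, a replicate block and each replicate left out; list counts under DESeq2 and with replicates left out, and ratios of counts, were added after seeing the data.

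Named genes were all members, up to 4 called genes per list and comparison by p, or the 1 with the smallest p, and for members averaging at least 16 CPM the 2 genes with the smallest root mean square difference of centred log2 CPM (prior count 2). Some genes that this rule names are not reported here. The check of the labelled tissue used Ins1, Ins2, Gcg and Sst. Floors are 3 counts per library and cover counting error only.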

Additional observations from a re-analysis of the deposited data

Results flagged for a closer look

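The effect of miR-17-5p on Sorcs2 differed between RISC and mRNA libraries by 1.69 on the log2 scale (SE 0.31, edgeR adjusted p = 0.00153), with all treated libraries above the controls in RISC and below them in mRNA. Of all 11418 genes tested, 13.0% were called upward in this difference, so 1 call among the receptor genes is near the general share. The Sorcs2 call was lost with limma-voom and with a replicate block. Lrp5 stood apart in miR-17-5p mRNA replicate 2, at 131 CPM against 79.7 to 88.1 CPM in the other 4 libraries. Sort1 stood apart in miR-17-5p RISC replicate 5, at 152 CPM against 132 to 135 CPM in the other 3. Of 16 groups of 4 or 5 libraries examined for a library far from the rest, these 2 were found, where chance gives about 1 in 20.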

How the results depend on the processing

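Of 430 values of single members under alternatives, 364 kept direction and side of the threshold, 33 lost their call, 4 gained one and 29 changed sign, none of the last being called. Leaving out libraries gave 85 to 816 genes called in mRNA, 0 to 1225 in RISC, 1155 to 2452 in the difference of effects, and between library types 3770 to 4780 in miR-17-5p cells and 0 to 3114 in control cells, with 0 to 3, 0 to 1, 1 to 1, 3 to 4 and 0 to 3 members; mRNA and RISC libraries of a number were left out together in the last 3. These member counts hold Lrp1 in RISC, and in miR-17-5p cells between library types, where its value is a description. In mRNA 85 and 107 were called without control replicate 3 and 2, 189, 237 and 249 without miR-17-5p replicate 4, 5 and 6, and 816 without miR-17-5p replicate 1. In RISC 1225, 548 and 122 were called without control 2, miR-17-5p 4 and control 3. The 0 in RISC came without miR-17-5p replicate 2, 5 or 6 (1139 to 1268 genes at an unadjusted p under 0.05), that in control cells without control replicate 1 (3565 likewise), and the 2452 without control replicate 2. DESeq2's test called 887 genes in mRNA and 1305 in RISC, and limma-voom 1001 in mRNA, 20 in RISC and 0 in the difference (1334 at an unadjusted p under 0.05; DESeq2 2217), with 0 members there and 2 members between library types in control cells. The cause was not tested.

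The replicate block called 0 genes (461 at an unadjusted p under 0.05) and 0 members in mRNA, 30 genes and 0 members in the difference, and 338 genes and 1 member between library types in control cells. Same-numbered libraries correlated at -0.18 to 0.05 in their deviations from group means and 4 of 7 were nearest to their own number, so the numbers were not taken as pairs. In RISC no paired analysis was possible because the groups share 1 number.

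Signs changed as follows, in log2. In mRNA, Lrp5 (main 0.00) gave 0.00 with DESeq2 size factors and DESeq2's test, -0.14 with limma-voom and -0.01 with the block, and Sort1 gave -0.08 with the block. With libraries left out, Lrp5 ranged from -0.14 to 0.11, Lrp6 from -0.03 to 0.08, Sort1 from 0.00 to 0.19 and Sorcs1 from -0.27 to 1.34. In RISC, limma-voom gave 3.17 for Lrp4, 2.79 for Sorcs1 and 0.13 for Sort1, and leaving libraries out gave -0.04 to 0.78 for Lrp5, -0.81 to 0.71 for Lrp4, -1.29 to 8.91 for Sorcs1 and -0.26 to 0.24 for Sort1. In the difference, limma-voom gave 3.02 for Lrp4 and 2.23 for Sorcs1, the block 3.59 for Sorcs1, and leaving libraries out -2.38 to 8.82 for Sorcs1, -0.23 to 0.29 for Sort1 and -0.51 to 0.06 for Sorl1. Between library types in control cells, limma-voom gave -1.22 for Lrp4 and leaving libraries out -0.19 to 0.08 for Lrp1. Lrp4 and Sorcs1 are limited by low levels in mRNA and by wide spread in RISC. In control RISC libraries 1, 2 and 3 Lrp4 had 0, 229 and 284 counts and Sorcs1 had 0, 227 and 0.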
